A study of Mus musculus with 74 samples.

Results

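The macrophage and chitinase-like genes described here are the 10 genes Chil3, Chil1, Lyz2, Csf1r, Adgre1, Mrc1, Cd68, Cd163, Aoah and Trem2, out of 22079 gene symbols with a group mean in at least 1 of the tables analysed. They were picked by symbol, with their ratios of lung metastasis (Lung met) to primary tumor (PT) already known, so every Lung met to PT value below is a description and carries no test. RNA was sequenced from paired PT and Lung met of genetically engineered mouse models of breast cancer, 74 samples in all. The FVB models were Her2 (MMTVneu, rat neu driven by the mouse mammary tumor virus promoter), C3Tag (C3TAg, SV40 large T antigen driven by the C3(1) promoter) and Myc (MMTV-Myc). The PyMT-F1 models were offspring of male MMTV-PyMT mice on FVB, which carry the polyoma middle T antigen, and female BALB/cJ (BALB), SEA/GnJ (SEAGN) or AKR/J (AKR) mice. By title, each tissue had 6 samples per model, apart from 7 in C3Tag. All mice carried an oncogenic transgene, so no group was free of one. The labels give humane endpoints as the time of harvest, whereas the study's methods state for Her2, C3Tag and Myc that animals with a single lesion had the tumor resected while small and were then aged further, so in those animals the PT was taken before the Lung met. The labels do not say which animals these were, so the earlier sampling and the tissue cannot be told apart there. The PT tissue of 1 animal was combined before sampling, whereas whole metastases were used, and each sample is therefore a mixture of tumor cells with the blood, immune and host tissue cells around them.

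In all, 5 comparisons gave a mean per tissue and gene: Her2, C3Tag, BALB, SEAGN and the table deposited under the AKR name, called AKR-named below. All 10 genes are listed in the Myc comparison too, but no Myc group mean was analysed here. Each is a least-squares mean of normalized signal that the authors fitted, 1 per tissue, with no value of a single sample, so no SD, replicate number or depth stands behind a value below, and whether groups overlap cannot be read. Of the 36 PyMT-F1 samples, only 13 carried the same strain in the title and in the genotype label (6 of 12 titled AKRJ, 4 of 12 titled SEA/Gn, 3 of 12 titled BALB). The AKR-named table used the gene identifiers of the FVB models, whereas BALB and SEAGN used identifiers of the BALB/cJ genome. The values of BALB, SEAGN and AKR-named rest on those samples as the authors grouped them, and could not be recomputed without any sample. Her2 and C3Tag do not rest on them. Each table was normalized separately, so levels are compared within a table only.

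Macrophages are phagocytes that tissues keep as resident populations or renew from blood monocytes, and most depend on the receptor Csf1r for survival. Alveolar macrophages of the lung airspace form a population of their own: they depend on the growth factor GM-CSF, carry Siglecf and Itgax (CD11c) and secrete the chitinase-like lectin Chil3 in large amounts. Macrophages of mammary tissue and tumors typically express Csf1r, Adgre1 (F4/80), Mrc1, complement C1q and often Trem2. Chitinase-like proteins share the fold of chitinases but have lost the enzyme activity. In bulk tissue, fewer cells of a type and less RNA per cell cannot be told apart.

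The sequences before the start sites of Chil3, Lyz2, Lyz1 and Mrc1 are shown because they hold a motif that the promoters of Chil1, Cd68, Cd163, Aoah and Trem2 did not. Chil3 lies on the minus strand at chr3:106147554-106167564 and Lyz2 on the minus strand at chr10:117277331-117282321. The paralog Lyz1 is next to Lyz2 at chr10:117287797-117292868, and Mrc1 is on the plus strand at chr2:14229392-14332057. All are protein-coding and given in GRCm38 from GENCODE, which is not the build of the tables. The stretches are RefSeq promoter sequence (GRCm38.p6), 5′ to 3′, cut so that no transcribed base is included: 250 bases for Chil3 (chr3:106167565-106167814, minus strand), 201 for Lyz2 (chr10:117282322-117282522, minus strand), 250 for Lyz1 (chr10:117292869-117293118, minus strand) and 228 for Mrc1 (chr2:14229164-14229391, plus strand). Capitals mark the motif AGGAAGT or its reverse complement ACTTCCT, an ETS-family core of the kind the myeloid factor PU.1 binds, which was chosen after the sequences were seen.
Chil3: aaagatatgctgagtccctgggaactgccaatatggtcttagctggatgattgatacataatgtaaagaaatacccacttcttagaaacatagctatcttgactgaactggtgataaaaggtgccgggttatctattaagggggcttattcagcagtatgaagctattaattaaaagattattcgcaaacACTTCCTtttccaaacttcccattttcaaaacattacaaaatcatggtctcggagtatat
Lyz2: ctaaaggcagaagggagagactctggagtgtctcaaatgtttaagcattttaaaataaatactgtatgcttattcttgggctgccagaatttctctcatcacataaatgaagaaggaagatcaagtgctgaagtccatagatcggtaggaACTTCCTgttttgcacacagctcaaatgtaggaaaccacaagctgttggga
Lyz1: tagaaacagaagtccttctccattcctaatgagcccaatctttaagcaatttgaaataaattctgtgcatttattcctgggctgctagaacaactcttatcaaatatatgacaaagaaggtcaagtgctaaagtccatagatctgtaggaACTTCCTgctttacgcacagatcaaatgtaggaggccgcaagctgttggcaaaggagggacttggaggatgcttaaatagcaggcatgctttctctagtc
Mrc1: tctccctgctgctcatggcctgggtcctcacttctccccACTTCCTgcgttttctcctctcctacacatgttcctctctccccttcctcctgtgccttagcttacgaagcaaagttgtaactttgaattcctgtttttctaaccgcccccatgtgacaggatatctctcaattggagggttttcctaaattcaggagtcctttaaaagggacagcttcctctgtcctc

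In each of these stretches the motif lies once, as ACTTCCT on the printed strand, and begins 60 bases before the end of the stretch in Chil3, 51 in Lyz2, 100 in Lyz1 and 189 in Mrc1. Searched on both strands, 3 of the 8 genes with a promoter in the table held it (Chil3, Lyz2 and Mrc1), and 9.35% of all 32851 promoters of the same source did. As the motif was chosen after these sequences were seen, nothing is read from these shares. Lyz1 and Chil4 held it too. The genes Chil1, Cd68, Cd163, Aoah and Trem2 had no match in this window, and Csf1r and Adgre1 had no entry. Whether its presence goes with the ratios of Lung met to PT was not tested. A match is a run of letters and not a measured binding site.

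Chil3 had the highest ratio of the 10 genes in both comparisons that gave it a mean. In Her2 the authors' mean was 10.0 in PT and 572 in Lung met, 57.0-fold higher (log2 ratio 5.83). In SEAGN it was 6.27 in PT and 349 in Lung met, 55.7-fold higher (log2 ratio 5.80). The log2 ratios of these 2 models lay 0.03 apart, but further apart with 10 added to both means, as given below. In Her2 the ratio of 6 genes was higher among 18208, and in SEAGN that of 2 genes among 17351. The PT means were near the bottom of the scale, so the fold depends on a small denominator: with 10 added to both means, the log2 ratio was 4.86 in Her2 and 4.46 in SEAGN. No Chil3 mean was analysed for C3Tag, BALB or AKR-named. Reads of Chil3 and its neighbour Chil4 can be hard to tell apart: the compared transcripts were 94.3% identical, and 275 of 1490 windows of 50 bases in Chil3 (18.5%) occurred unchanged in Chil4, which had no group mean.

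**Figure D1:**
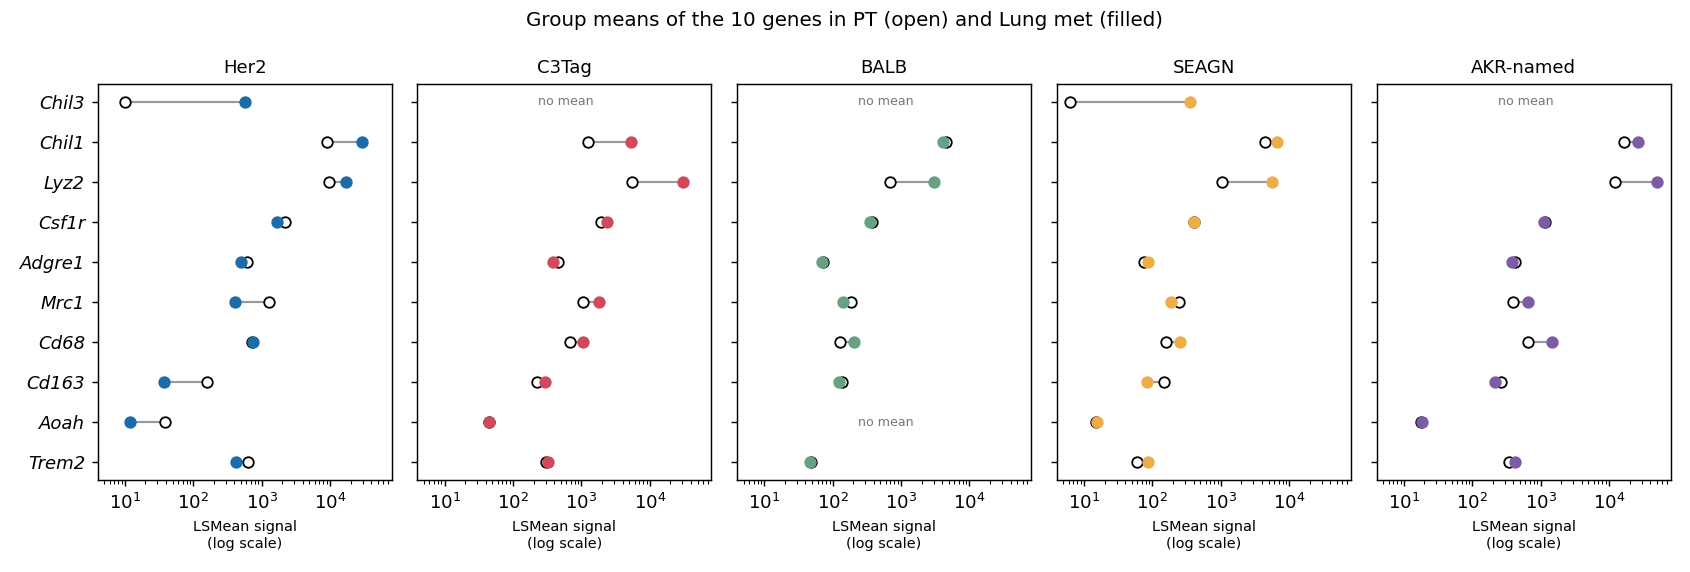
The authors' least-squares mean of each gene in PT (open circles) and Lung met (filled circles), in units of normalized signal on a log axis, with 1 panel per comparison and no error bars because no sample values were analysed. Chil3 spans the widest gap, from 10.0 to 572 in Her2 and from 6.27 to 349 in SEAGN, whereas the circles of Csf1r lie within 1.32-fold of each other in every panel.

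Chil1, a chitinase-like lectin made by macrophages, neutrophils and epithelial cells, including mammary epithelium, differed by model. It was 3.32-fold higher in Lung met in Her2, with a mean of 8973 in PT and 29792 in Lung met, and 4.26-fold higher in C3Tag, with 1243 and 5303. The ratio was smaller in SEAGN, where the means were 4426 and 6625 (log2 ratio 0.58), and in AKR-named, where they were 16803 and 26978 (log2 ratio 0.68). In BALB the Lung met mean was slightly the lower of the pair, 4088 against 4495 (log2 ratio -0.14). Chil1 and Chil3 thus parted in SEAGN, where Chil3 had a log2 ratio of 5.80 and Chil1 one of 0.58. Unlike Chil3, Chil1 had a PT mean of at least 1243 in every table.

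The remaining chitinase-family genes did not share the Chil3 values. Chid1, a stabilin-binding member of the family, had log2 ratios between -0.02 and 0.15 in the 5 comparisons. Ctbs, the lysosomal chitobiase, ranged from -0.06 to 0.56. Chit1, a true chitinase, had a mean of 544 in PT and 258 in Lung met in Her2 (log2 ratio -1.08). It had 309 and 117 in AKR-named (-1.40), and 51.4 and 70.3 in BALB (0.45). It thus lay on the other side of 0 from Chil3 in Her2. Of the 7 family genes listed besides Chil3 and Chil1, 3 had a mean in Her2, BALB and AKR-named and 2 in C3Tag and SEAGN. None was 2-fold higher, where 2.26% (BALB) to 7.42% (C3Tag) of all genes were. Chil4, Chil5, Chil6 and Chia1 gave no mean.

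Lyz2, lysozyme of macrophages and neutrophils that alveolar type II cells also make, was at least 2-fold higher in Lung met in 4 of 5 comparisons. The mean went from 5556 in PT to 31010 in Lung met in C3Tag (5.58-fold) and from 1023 to 5643 in SEAGN (5.51-fold). In BALB the pair was 699 and 3074 (4.39-fold), and in AKR-named 12298 and 50658 (4.12-fold). Her2 stood apart with the smallest ratio, 9759 against 17142 (1.76-fold), although Chil3 was 57.0-fold higher there. Lyz1, the paralog known from Paneth cells and also found in alveolar type II cells, had larger log2 ratios than Lyz2 wherever it had a mean, at 4.70 in Her2, 4.35 in BALB, 6.24 in SEAGN and 4.47 in AKR-named. The compared Lyz2 and Lyz1 transcripts were 92.0% identical and 195 of 1267 windows of 50 bases in Lyz2 (15.4%) occurred in Lyz1, so the split of reads between both genes is uncertain. With both genes summed, the log2 ratio was 0.90 in Her2, 2.18 in BALB, 2.64 in SEAGN and 2.15 in AKR-named.

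The receptor Csf1r, which binds the growth factors Csf1 and Il34 and marks macrophages in general, had means within 1.32-fold of each other in both tissues. It was 2192 in PT and 1659 in Lung met in Her2 (log2 ratio -0.40), 1958 and 2344 in C3Tag (0.26), 371 and 349 in BALB (-0.09), 408 and 405 in SEAGN (-0.01), and 1157 and 1114 in AKR-named (-0.06). None of the 5 ratios reached 2-fold in either direction. Adgre1, the adhesion receptor behind the F4/80 antigen, was also within 2-fold, with log2 ratios of -0.32 in Her2, -0.24 in C3Tag, -0.08 in BALB, 0.22 in SEAGN and -0.14 in AKR-named. Its means ranged from 72.97 to 614 in PT across the tables. Csf1r and Adgre1 had the narrowest spreads of log2 ratios among the 9 genes with a mean in at least 4 tables, 0.66 and 0.54 between the lowest and the highest table.

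Trem2, a lipid-sensing receptor of tumor and lipid-laden macrophages, also stayed within 2-fold, from a log2 ratio of -0.58 in Her2 to 0.53 in SEAGN. Its means were 636 in PT and 425 in Lung met in Her2, and 60.4 and 87.3 in SEAGN. Cd68, a lysosomal glycoprotein abundant in macrophages, was the one general macrophage gene whose Lung met mean was the higher in all 5 comparisons. Its log2 ratio was 0.07 in Her2, 0.61 in C3Tag, 0.65 in BALB and 0.65 in SEAGN, and only in AKR-named, with 657 in PT and 1469 in Lung met (2.24-fold), did it pass 2-fold.

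Csf1r, Adgre1, Trem2, Cd68, Mrc1, Cd163 and Aoah all had their lowest ratios in Her2, and only Mrc1, Cd163 and Aoah among them were past 2-fold there. Mrc1, the mannose receptor CD206, had a mean of 1275 in PT and 408 in Lung met of Her2, 3.13-fold lower. Cd163, the haemoglobin scavenger receptor of resident macrophages, had 159 and 37.1 there, 4.28-fold lower. Aoah, the acyloxyacyl hydrolase that inactivates bacterial lipopolysaccharide, had 38.5 and 12.0, 3.21-fold lower. In the other models Mrc1, Cd163 and Aoah stayed within 2-fold. Mrc1 was higher in Lung met in C3Tag (1061 in PT and 1832 in Lung met, log2 ratio 0.79) and AKR-named (394 and 650, 0.72), and lower in BALB (183 and 141, -0.38) and SEAGN (243 and 184, -0.40). Cd163 was closest to 2-fold in SEAGN, with 149 in PT and 83.2 in Lung met (log2 ratio -0.84), and had log2 ratios of 0.39 in C3Tag, -0.12 in BALB and -0.29 in AKR-named. Aoah had log2 ratios of -0.02 in C3Tag, 0.00 in SEAGN and 0.07 in AKR-named, with means between 15.2 and 45.0, and gave no mean in BALB.

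**Figure D2:**
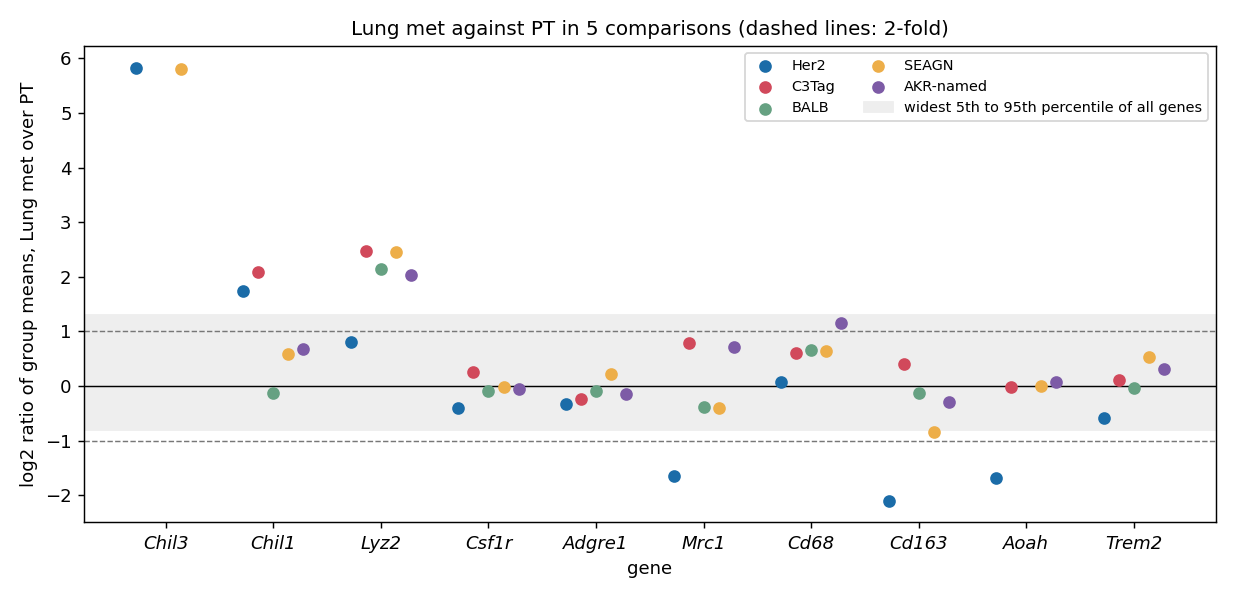
The log2 ratio of the Lung met mean over the PT mean for each gene, with 1 point per comparison, dashed lines at 2-fold and a grey band from the lowest 5th to the highest 95th percentile of all genes in the 5 tables. Chil3 lies far above the band at 5.83 and 5.80, Lyz2 lies above it in 4 comparisons and Chil1 in 2, and Mrc1, Cd163 and Aoah lie well below it in Her2.

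Counted at 2-fold, 2 of the 10 genes were higher in Lung met in Her2 (Chil3 and Chil1) and 3 were lower (Mrc1, Cd163 and Aoah), where 2.38% of all 18208 genes were higher and 1.43% lower. In C3Tag 2 of 9 were higher (Chil1 and Lyz2) and 0 lower, beside 7.42% and 1.70% of 19320 genes. In BALB 1 of 8 was higher (Lyz2) and 0 lower, beside 2.26% and 2.40% of 17270 genes. In SEAGN 2 of 10 were higher (Chil3 and Lyz2) and 0 lower, beside 2.86% and 3.22% of 17351 genes. In AKR-named 2 of 9 were higher (Lyz2 and Cd68) and 0 lower, beside 7.31% and 1.73% of 17829 genes. Since the genes were chosen for these ratios, nothing is read from the counts against those shares.

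Set against the general macrophage genes, Chil3 stood far above them. The median log2 ratio of Csf1r, Adgre1, Mrc1, Cd68, Cd163, Aoah and Trem2 was -0.58 in Her2, 0.26 in C3Tag, -0.09 in BALB, 0.00 in SEAGN and 0.07 in AKR-named, while the median of all genes lay between -0.00 and 0.03. The Chil3 ratio exceeded that median by 6.41 on the log2 scale in Her2 (85.2-fold) and by 5.79 in SEAGN (55.5-fold). Against Csf1r alone the excess was 6.24 and 5.81, and against the median of 8 pan-leukocyte genes, a comparison chosen after the data were seen, it was 5.67 in Her2 and 5.28 in SEAGN. Lyz2 exceeded the general median by 1.39 in Her2, 2.22 in C3Tag, 2.22 in BALB, 2.46 in SEAGN and 1.97 in AKR-named. Chil1 did so by 2.31 in Her2 and 1.83 in C3Tag, but by 0.58 in SEAGN and 0.61 in AKR-named, and lay 0.05 under it in BALB (-0.05).

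**Figure D3:**
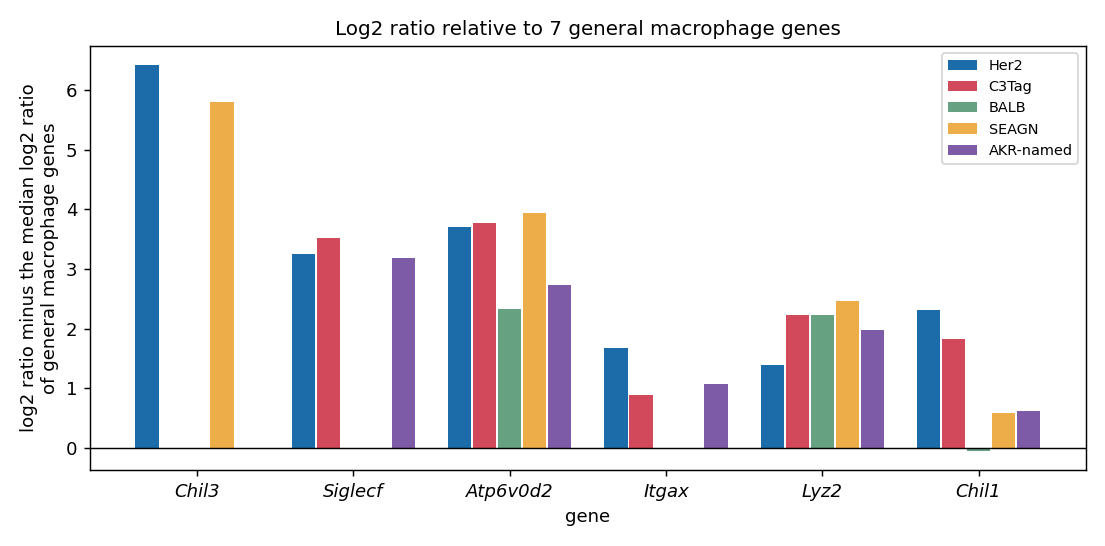
Bars give the log2 ratio (Lung met over PT) of a gene minus the median log2 ratio of the general macrophage genes Csf1r, Adgre1, Mrc1, Cd68, Cd163, Aoah and Trem2 in the same table, colored by comparison, and a missing bar is a table without a mean. Chil3 stands at 6.41 and 5.79, Atp6v0d2 between 2.33 and 3.94, and Chil1 near 0 in BALB.

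Other alveolar macrophage genes gave values for the models in which Chil3 had none. Those named next were picked for passing 2-fold, either way, in at least 3 comparisons, so nothing is read from their being past it. Atp6v0d2, a proton pump subunit, was past 2-fold in all 5 comparisons, with log2 ratios of 3.12 in Her2, 4.02 in C3Tag, 2.24 in BALB, 3.94 in SEAGN and 2.80 in AKR-named. Siglecf, the sialic acid-binding receptor used to gate alveolar macrophages and also found on eosinophils, was at 2.67 in Her2, 3.77 in C3Tag and 3.25 in AKR-named, with PT means of only 2.77, 6.60 and 5.99 and Lung met means of 17.7, 90.3 and 57.0. Itgax, the integrin CD11c shared with dendritic cells, was at 1.09 in Her2, 1.14 in C3Tag and 1.14 in AKR-named. Lpl, lipoprotein lipase, which adipocytes also make, was past 2-fold in BALB (2.22), SEAGN (1.06) and AKR-named (1.54). It was at 0.81 in Her2 and 0.59 in C3Tag. Krt79, a keratin, was higher in Her2 (1.96), lower in C3Tag (-1.18) and SEAGN (-1.25), and at 0.18 in BALB. The 24 genes of the alveolar macrophage list include Chil3 itself, which counts among the higher ones in Her2 and in SEAGN. Genes with a mean numbered 18, 17, 12, 14 and 17 in Her2, C3Tag, BALB, SEAGN and AKR-named. Those at least 2-fold higher numbered 8, 7, 2, 3 and 8 in the same order, and those at least 2-fold lower 0, 1, 0, 2 and 0. Of all genes, 2.38%, 7.42%, 2.26%, 2.86% and 7.31% were higher and 1.43%, 1.70%, 2.40%, 3.22% and 1.73% lower in that order.

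The list did not move as a block. Its median log2 ratio was 0.64 in Her2, 0.76 in C3Tag, 0.19 in BALB, 0.17 in SEAGN and 0.93 in AKR-named. These medians rest on different genes, as Siglecf, Itgax, Csf2rb, Ear2 and Cd2 had no mean in BALB or SEAGN. Wherever those genes had a mean they were at least 2-fold higher, apart from Csf2rb in Her2 (0.47). The list medians and counts are therefore not set against each other across comparisons. Fabp4, a fatty acid-binding protein of alveolar macrophages and adipocytes, was at -2.73 in SEAGN and -0.38 in Her2. Both adipocyte genes with a mean were below 0 in SEAGN, Plin4 at -0.84 and Cidea at -1.80, whereas in Her2 Plin4 was at -1.97 and Cidea at 0.90. Pparg, the nuclear receptor of alveolar macrophage and fat cell differentiation, was at 0.09 in both Her2 and SEAGN, the comparisons with a Chil3 mean, and at 1.90 in C3Tag. Cd9 and Fabp5, which tumor cells express too, lay between -0.02 and 0.70. Fabp4, Plin4, Cidea, Pparg, Cd9, Fabp5 and Ear2 were picked from the lists after their values were seen. Marco, Car4 and Ear1 gave no mean, and Ear2, an eosinophil-type ribonuclease of alveolar macrophages, had means of 20.3 in PT and 1227 in Lung met in C3Tag (log2 ratio 5.92) and of 40.8 and 804 in AKR-named (4.30).

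The 25 genes of the tissue and tumor macrophage list, which holds the 7 general genes, had medians of -0.38 in Her2, 0.30 in C3Tag, -0.05 in BALB, -0.00 in SEAGN and 0.19 in AKR-named. In Her2, 3 of 25 were at least 2-fold higher and 6 lower. In the other comparisons 6 of 25, 2 of 21, 2 of 24 and 4 of 25 were higher and 0, 0, 1 and 0 lower. Of all genes, 2.38%, 7.42%, 2.26%, 2.86% and 7.31% were higher and 1.43%, 1.70%, 2.40%, 3.22% and 1.73% lower, from Her2 to AKR-named. Within the list, and chosen after their values were seen, a few genes stood apart. Gpnmb, a glycoprotein of lipid-laden macrophages and melanocytes, was higher by log2 ratios of 2.62 in Her2, 3.41 in C3Tag, 2.72 in BALB, 3.76 in SEAGN and 2.31 in AKR-named. Folr2, a folate receptor of resident mammary macrophages, had log2 ratios of -1.84, -0.83, -0.43, -1.42 and -0.95 in the same order. The complement gene C1qa stayed between -0.37 and 0.29. Lyve1, which lymphatic endothelium shares with some macrophages, was between 1.77 and 3.48.

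The genes listed beside Csf1r were its ligands, Spi1, Tyrobp and the genes of GM-CSF and its receptor. Their median log2 ratios were -0.00 in Her2, 0.96 in C3Tag, 0.35 in BALB, 0.20 in SEAGN and 0.92 in AKR-named. Csf1r itself was at -0.40, 0.26, -0.09, -0.01 and -0.06 in the same order. Csf1, the main ligand, had log2 ratios of 0.05 in Her2, 0.48 in C3Tag, -0.13 in BALB, -0.02 in SEAGN and -0.01 in AKR-named. Il34, the alternative ligand, was at -0.83 in Her2 but past 2-fold in C3Tag (1.64) and AKR-named (1.08). Spi1, which encodes the transcription factor PU.1, was past 2-fold in C3Tag (1.01) and AKR-named (1.12) and at -0.05 in Her2, 0.48 in BALB and 0.73 in SEAGN. Tyrobp, the adaptor that Trem2 signals through, ranged from -0.09 in Her2 to 0.77 in C3Tag. Csf2ra and Csf2rb, the chains of the GM-CSF receptor, ranged from 0.20 to 0.91 and from 0.47 to 1.56, and Csf2 itself gave no mean. Of the 7 genes of this list, 6 had a mean in Her2, C3Tag and AKR-named and 5 in BALB and SEAGN. At least 2-fold higher were 3 in C3Tag and in AKR-named and 0 in Her2, BALB and SEAGN. Of all genes, 7.42% and 7.31% were higher in C3Tag and AKR-named, against 2.38%, 2.26% and 2.86% in Her2, BALB and SEAGN.

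Many genes of lung epithelium and of neutrophils also had higher Lung met means, with exceptions in each list. Of all genes, 2.38% were at least 2-fold higher in Her2, 7.42% in C3Tag, 2.26% in BALB, 2.86% in SEAGN and 7.31% in AKR-named. Of 7 alveolar type I genes, 5 were at least 2-fold higher in Her2, 7 in C3Tag, 4 in BALB, 5 in SEAGN and 6 in AKR-named, with median log2 ratios of 2.06, 2.55, 2.85, 3.57 and 3.86. Of 10 alveolar type II genes, which include Lyz1, 5 of 7 with a mean were higher in Her2, BALB, SEAGN and AKR-named and 5 of 6 in C3Tag, with medians of 1.26, 3.54, 4.61, 4.47 and 6.15. The summed means of the type II genes in PT and Lung met were 22689 and 26542 in Her2, 6223 and 44604 in C3Tag, 3634 and 7152 in BALB, 3617 and 9857 in SEAGN, and 10079 and 35460 in AKR-named. In Her2 and C3Tag 61.3% and 68.2% of the PT sum was Etv5, which had log2 ratios of -0.22 and -0.14. For the type I genes the sums were 59037 and 58150 in Her2, 3414 and 14780 in C3Tag, 3801 and 3369 in BALB, 2547 and 5665 in SEAGN, and 15267 and 33059 in AKR-named. The water channel gene Aqp5 made up between 58.4% and 97.6% of the PT sum, with log2 ratios of -0.13 in Her2 and -0.66 in BALB. Without it the other 6 genes summed to 1420 and 5476 in Her2, 1419 and 8341 in C3Tag, 338 and 1177 in BALB, 352 and 2017 in SEAGN, and 1900 and 19126 in AKR-named. Sftpc, Sftpa1 and Sftpb gave no mean, and Ager, a type I gene chosen after its values were seen, was between 4.04 and 5.48 on the log2 scale. The part of lung tissue in the Chil3 and Lyz2 values was not tested.

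Neutrophil genes bear on Lyz2 and Chil1, which neutrophils also express. Of 13, those at least 2-fold higher were 5 of 7 with a mean in Her2, 9 of 10 in C3Tag, 6 of 8 in BALB, 7 of 8 in SEAGN and 8 of 9 in AKR-named, and the medians were 2.39, 3.15, 1.58, 2.30 and 3.93. Their summed means in PT and Lung met were 3955 and 20224 in Her2, 3516 and 7660 in C3Tag, 8590 and 40924 in BALB, 5420 and 21260 in SEAGN, and 40132 and 83996 in AKR-named. Ltf, lactoferrin, which mammary epithelium secretes too, made up between 77.9% and 98.2% of the PT sum, with log2 ratios from -0.84 in C3Tag to 2.39 in Her2. Without it the sums were 178 and 433 in Her2, 775 and 6129 in C3Tag, 284 and 793 in BALB, 288 and 1063 in SEAGN, and 724 and 9686 in AKR-named, so the Lung met sum was the higher in all 5 comparisons. Leaving out Aqp5 and Ltf was chosen after the data were seen, as was naming Etv5. Ly6g, Camp and Elane gave no mean. The shares of all genes at least 2-fold higher were as given above for lung epithelium. The pan-leukocyte list, with Ptprc among its 8 genes, had smaller medians of 0.16, 0.78, 0.28, 0.52 and 0.95 in the same order. Monocyte genes had medians of 0.60, 1.00, -0.29, 0.53 and 1.46 over 10, 10, 6, 7 and 10 genes with a mean. Dendritic cell genes had 0.07, 0.48, 0.97, 0.46 and 1.23 over 6, 5, 2, 3 and 6. The 2 dendritic cell genes in BALB, named after their values were seen, lay on opposite sides of 0, Zbtb46 at -0.35 and Clec9a at 2.30. The part of these cells in the Chil3, Lyz2 and Chil1 values was not tested.

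Mammary epithelial genes were measured in both tissues, and those named here were chosen after their values were seen. How far they reflect tumor cells rather than lung epithelium was not tested. Krt8, a luminal keratin, had log2 ratios between -0.02 and 0.64, and Epcam between -0.68 in C3Tag and 0.05 in AKR-named. The list of 8 had medians of 0.07 in Her2, 0.11 in C3Tag, 0.28 in BALB, 0.30 in SEAGN and -0.14 in AKR-named. Those at least 2-fold higher were 2 of 7 in Her2, 0 of 7 in C3Tag, 3 of 8 in BALB, 1 of 8 in SEAGN and 0 of 7 in AKR-named, and 1 was lower, in C3Tag. Of all genes, 2.38%, 7.42%, 2.26%, 2.86% and 7.31% were higher in the same order, and 1.70% lower in C3Tag. Other keratins differed from Krt8: Krt19 had a mean of 72.3 in PT and 1014 in Lung met in Her2 (log2 ratio 3.81), Krt14 had log2 ratios of 1.09 in Her2, -1.51 in C3Tag and 1.12 in BALB, and Krt5 of 1.51 in BALB and 1.69 in SEAGN. Proliferation genes had medians of -0.28, -0.73, 0.11, 0.37 and -0.17. The list of alternatively activated macrophage genes, which holds Chil3 and Mrc1, had medians of -0.03, 1.46, -0.56, 0.43 and 0.88 over 8, 6, 2, 4 and 7 genes with a mean, and in it Clec10a, a lectin receptor chosen after its values were seen, was at -2.57 in Her2. Only 2 adipocyte genes had a mean in Her2, C3Tag, SEAGN and AKR-named and 1 in BALB, and their medians were -0.54, -1.22, -1.32, -0.58 and -1.58 in the order Her2, C3Tag, SEAGN, AKR-named and BALB.

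**Figure D4:**
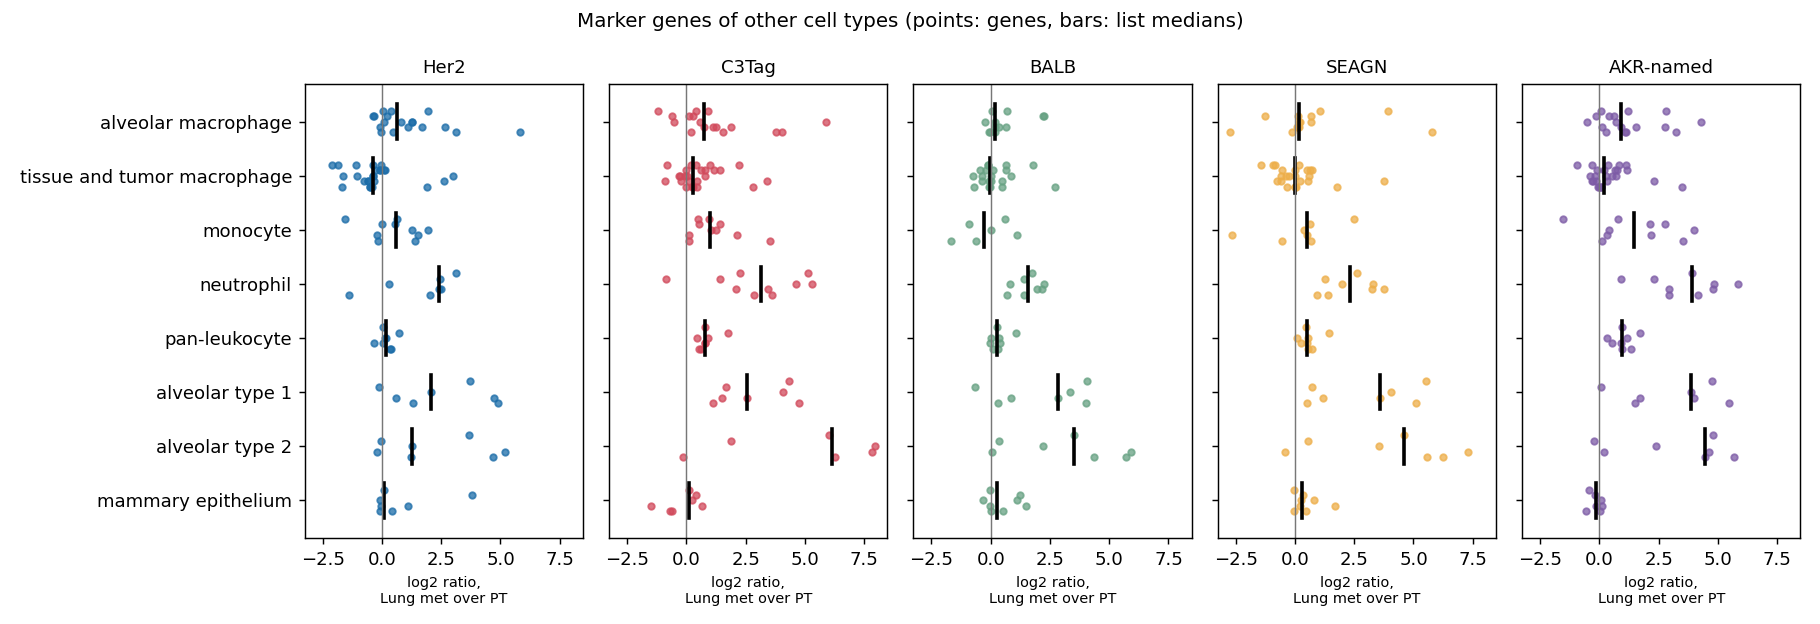
Each point is the log2 ratio (Lung met over PT) of 1 gene of a marker list and each black bar is the median of the list, with 1 panel per comparison. Tissue and tumor macrophage genes center near 0, from -0.38 in Her2 to 0.30 in C3Tag, while alveolar type I, alveolar type II (types 1 and 2 in the plot) and neutrophil medians lie at 1.26 or above in every panel.

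The genes whose ratios lay closest to those of Chil3 over the 2 comparisons that gave it a mean, among 12244 genes and by Euclidean distance of log2 ratios, were Ager (1.16), Lyz1 (1.21), Hc (1.39), Lamp3 (1.62) and Clic5 (2.12). Ager and Clic5 are type I markers and Lamp3 a type II marker in the lists used here, and Hc encodes complement component C5. The Chil3 values lay at 5.83 and 5.80, whereas Lamp3 was at 5.19 in Her2 and 7.28 in SEAGN. For Csf1r, over 5 comparisons and 11795 genes, the closest were Ap2a1 (0.11), Mtch1 (0.11), Apoe (0.16), Ppp1r36 (0.19) and Lmf2 (0.19). Of these Apoe, the lipid carrier, is in the tissue and tumor macrophage list, and a profile near 0 in all 5 comparisons is one that many genes share. Likeness was measured over means of the same libraries as the 10 genes.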

How the data were processed

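RNA-seq libraries of paired PT and Lung met were grouped by title. Per the labels, total RNA was extracted and libraries were made with the Illumina Stranded Total RNA Prep with Ribo-Zero Plus, whereas the study's methods name an mRNA kit. Per the submitters' processing notes and methods, the authors used STAR 2.7.8a, mm39 and Partek Flow, and compared tissues with Gene Specific Analysis in the FVB models and with DESeq2 in PyMT-F1. The study's methods name older mouse builds. The normalization is not given in the sources used here.

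The values used are the authors' least-squares means per tissue, a normalized signal deposited without sample values. Depth is unknown, and the scale on which a gene's mean was fitted is not known, so a ratio of means may differ from a ratio of averages. The deposited p-values, FDR, ratios and fold changes hold the authors' own comparisons and were not used, nor was the Myc table, which holds p-values and FDR only. For that reason no test was run. The design had named the count model or limma for sample tables and the ratio of means otherwise.

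Dividing the Lung met mean by the PT mean gave the log2 ratio, computed with Python 3.11.15, numpy 2.4.6 and pandas 2.3.3, with no pseudocount. A gene counted as higher or lower at 2-fold, set beside the same share over all genes with both means. Rows without a symbol (0.04% to 15.5% per table) stayed in that share. The counting step was tested on simulated data. Members and lists were chosen with earlier results of these data known. The genes named were the 10 members, the chitinase family, Lyz1, the Csf1r partners with the GM-CSF genes, alveolar macrophage genes past 2-fold in at least 3 tables and the 5 nearest genes to Chil3 and to Csf1r. Others are marked as chosen later. Alternatives were a fold of 1.5, pseudocounts of 1 and 10, centring on the median of all genes and a minimum mean of 10. Of the deposited tables, 0 columns of single samples were left unused.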

Additional observations from a re-analysis of the deposited data

How the results depend on the processing

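With no sample values, a value counted as moved past 1.5-fold and a count past 1.5 times. No paired analysis was possible because the tables hold 1 mean per tissue and no sample, and for that reason leaving out replicates could not be run either. No value past 2-fold turned its direction. With a pseudocount of 10, the Chil3 log2 ratio went to 4.86 in Her2 and 4.46 in SEAGN, and its excess over the general macrophage genes to 5.43 and 4.46. Against pan-leukocyte genes, chosen after seeing the data, that excess was 5.67 in Her2 and 5.28 in SEAGN. At 1.5-fold, genes higher numbered 4 in C3Tag, 2 in BALB and 4 in AKR-named, and genes lower 1 in SEAGN, where 14.0%, 6.20% and 13.6% of all genes were higher and 8.32% lower at that fold. Among genes with a mean of at least 10, the median of the alternatively activated list in SEAGN turned from 0.43 to -0.40. Of the 142 alternatives for single genes 140 stayed within 1.5-fold, the other 2 being Chil3, as did 59 of 60 list medians and 26 of 30 counts. For the excess of Chil3 over the general macrophage genes, 3 of 6 alternatives moved. For the shares of all genes 10 of 20 moved, those at 1.5-fold. Summing Chil3 and Chil4 was not run, since Chil4 had no mean. The Chil3 fold rests on PT means of about 10 or less, whose counting error is unknown.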
